A study of Mus musculus with 8 samples.

Results

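Laminins are the cross-shaped proteins of basement membranes, the thin matrix sheets on which epithelium, vessels, muscle and glia rest. Each laminin is a trimer of an α, a β and a γ chain. β and γ chains pair inside the cell and are held there until an α chain joins, after which the trimer is secreted, so the α chain sets which laminin leaves the cell. In the intestine, epithelial and mesenchymal cells both supply chains to the sheet under the epithelium.

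The members were 9 laminin chain genes taken by symbol, Lama1 to Lama5, Lamb1, Lamb2, Lamc1 and Lamc3, and all 9 were found among the 53801 genes of the count table. Lamb3, another laminin gene in the table, was used only to complete the β class. RNA came from CD45-CD31- YFP+ stromal cells sorted from the small intestine into a PDGFRα- and a PDGFRα+ fraction, with 4 libraries each. Both fractions came from mice labelled LTβRfloxPDGFRα/YFP, so the floxed lymphotoxin β receptor allele and YFP were common to the groups compared. The labels give no age, do not say what drives YFP or recombination, and do not say whether the 4 libraries of a fraction came from separate mice. P-values therefore measure the spread between libraries, which may be technical.

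Total counts ran from 12.9 to 35.1 times 1e+06 per library. Fibroblast markers were abundant in both fractions, with all 10 detected, and their summed level was 119629 to 169499 counts per 1e+06 counts of the library (CPM) in PDGFRα- and 89258 to 114876 CPM in PDGFRα+ libraries. Pdgfra RNA overlapped between the fractions, at 475 to 750 and 497 to 656 CPM, so it does not check a sort made on surface protein. All 11 endothelial markers were highest in PDGFRα- library 4, with a summed level of 679 CPM against 61.0 to 179 CPM in the other 7 libraries. Epithelial markers summed to at most 35.6 CPM, enteric glial markers to at most 13.8 CPM and leukocyte markers to at most 54.9 CPM. Smooth muscle markers summed to 455 to 1915 CPM in PDGFRα- and 575 to 1672 CPM in PDGFRα+ libraries, and pericyte markers to 829 to 1599 and 689 to 1244 CPM. In an edgeR fit with the replicate number of the titles as a block, which called 1.34% of all genes higher and 0.933% lower, 1 of 10 fibroblast markers was called higher in PDGFRα+ cells and 4 lower, 1 of 6 tested pericyte markers higher and 1 lower, and 1 of 8 smooth muscle markers higher. The part of these cell types in the laminin values was not tested. In bulk libraries, fewer cells of a type and less RNA per cell cannot be told apart.

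Laminin RNA in both fractions was mainly Lama2, Lamb1 and Lamc1, the chains of laminin 211. In PDGFRα+ cells the means of Lama1, Lama4 and Lamb1 stood higher, at 3.89-fold, 1.61-fold and 1.55-fold of the PDGFRα- mean. The main edgeR fit called none of these chains, and the fit with the replicate number as a block called all 3. Lamc3 and Lamc1 stood at 3.44-fold and 1.33-fold and were called in neither fit. The Lamb2 mean was 0.826-fold, and its difference from Lamb1 was not tested. The comparison was made with the edgeR quasi-likelihood test over 15643 genes, at a Benjamini-Hochberg adjusted p of 0.05. In that fit 0 of 9 chains passed, against 0.243% of all genes in either direction. Before adjustment 4 of 9 chains, all higher, had a p under 0.05, as did 6.95% of all genes. DESeq2 without the block called 2 chains, against 1.55% of all genes, and limma-voom 0, against 0.192%. When the replicate number of the titles was added as a block, 3 of 9 chains passed as higher, against 1.34% of all genes, and 0 as lower, against 0.933%. The labels do not say what same-numbered libraries share, and the correlation check did not establish that the numbers pair them. The blocked values are given because the authors' deposited dispersions match those of a model that contains the number. Of the 9 chains, 4 are listed as higher in the authors' deposited table past the same threshold, Lama1, Lama4, Lamb1 and Lamc1, against 2.3% of its genes with an adjusted p. That table rests on the same libraries and is no independent evidence.

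**Figure D1:**
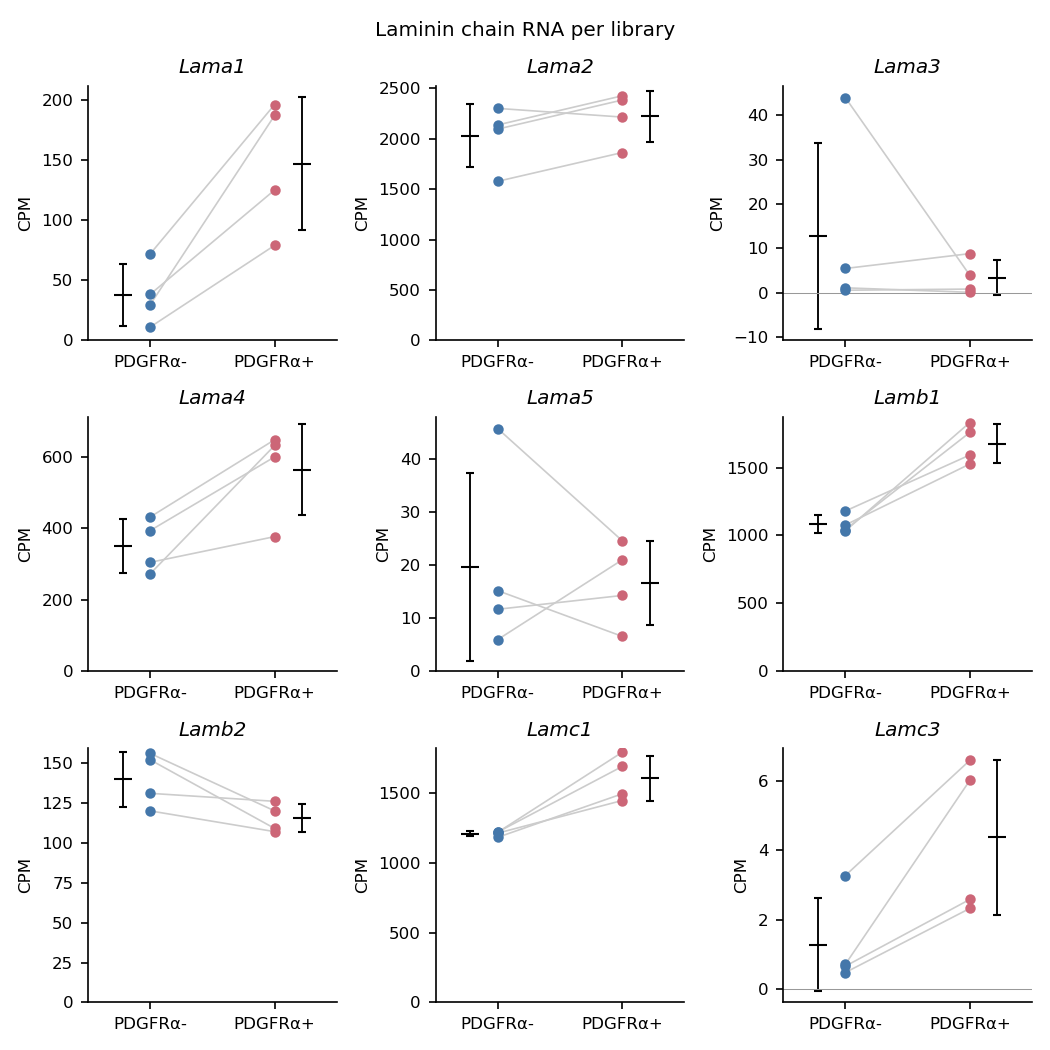
CPM of each laminin chain (y axis, linear, a separate scale per gene) in the 4 PDGFRα- and 4 PDGFRα+ libraries (x axis). Points are libraries, grey lines join libraries with the same number, and black bars give mean ± SD. Lama1, Lamb1 and Lamc1 show no overlap between the fractions, and single high points stand out for Lama3 and Lama5 in PDGFRα- library 4.

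Separation between the fractions was also read from the CPM values themselves. For 3 of 9 chains, Lama1, Lamb1 and Lamc1, every PDGFRα+ library lay above every PDGFRα- library, which held for 2.69% of all genes tested. For 0 of 9 chains every PDGFRα+ library lay below, which held for 2.36% of all genes. The median log2 fold change of the 9 chains was 0.41 without and 0.40 with the block, beside -0.01 over all genes in each fit.

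Lama1 encodes the α1 chain, the α chain of the classical laminin 111 of embryonic and subepithelial basement membranes. The gene (ENSMUSG00000032796, GRCm38, chromosome 17, 67697259 to 67822647) stood at 71.9, 29.7, 38.3 and 11.1 CPM in PDGFRα- libraries 1 to 4 and at 196, 187, 125 and 79.0 CPM in PDGFRα+ libraries 1 to 4. The fractions did not overlap, although the lowest PDGFRα+ library, number 4, was close to the highest PDGFRα- library, number 1. The means were 37.8 ± 25.4 and 147 ± 55.1 CPM (SD, n = 4). Its log2 fold change came to 1.96 ± 0.55 (SE, 95% interval 0.70 to 3.22, edgeR adjusted p = 0.359), and 2.15 ± 0.23 with the block (edgeR adjusted p = 4.8e-04). Same-numbered libraries differed 2.72-fold, 6.3-fold, 3.26-fold and 7.12-fold for numbers 1 to 4. Lama1 passed the blocked edgeR test also when any 1 of the 4 numbers was left out, and it passed DESeq2 without the block (adjusted p = 0.0022).

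Lama4 encodes the α4 chain of laminins 411 and 421, which are known from vessel walls, smooth muscle and other mesenchymal basement membranes. Its short arm is truncated, and trimers that contain it do not self-assemble into networks as full-length chains do. In the annotation its longest coding sequence was 5448 bases, against 9249 for Lama1, 9354 for Lama2, 9990 for Lama3 and 11154 for Lama5. Lama4 (ENSMUSG00000019846, chromosome 10, 38965515 to 39110188) stood at 432, 273, 394 and 305 CPM in PDGFRα- libraries 1 to 4 and at 648, 632, 600 and 377 CPM in PDGFRα+ libraries 1 to 4. PDGFRα+ library 4 fell among the PDGFRα- values, and the other 3 lay above all of them. The means were 351 ± 74.4 and 564 ± 127 CPM (SD, n = 4). On the log2 scale the difference was 0.69 ± 0.20 (SE, edgeR adjusted p = 0.297), and 0.68 ± 0.14 with the block (edgeR adjusted p = 0.0144). The same-numbered ratios were 1.5, 2.31, 1.52 and 1.24. The blocked call was lost without number 1 (edgeR adjusted p = 0.0508) or number 3 (0.118).

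Lama2 encodes the α2 chain of laminins 211 and 221, the main α chain around muscle fibres and peripheral nerve, which binds dystroglycan and integrin α7β1. It was the most abundant α chain in every library. Lama2 (ENSMUSG00000019899, chromosome 10, 26980036 to 27619758) stood at 1578, 2301, 2096 and 2137 CPM in PDGFRα- and at 1863, 2215, 2384 and 2426 CPM in PDGFRα+ libraries 1 to 4. The fractions overlapped. The log2 difference was 0.13 ± 0.17 (SE, 95% interval -0.22 to 0.49, edgeR adjusted p = 0.97). Whether Lama2 differs from the other chains in this respect was not tested.

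Lama3 and Lama5 encode the α chains of epithelial and endothelial basement membranes, α3 in the laminin of hemidesmosomes and α5 in laminins 511 and 521. Lama3 (ENSMUSG00000024421, chromosome 18, 12333819 to 12583013) had 27, 11, 70 and 876 counts in PDGFRα- and 3, 20, 273 and 53 counts in PDGFRα+ libraries 1 to 4, or 1.10, 0.553, 5.46 and 44.0 CPM and 0.086, 0.819, 8.81 and 3.94 CPM. Lama5 (ENSMUSG00000015647, chromosome 2, 180176373 to 180225859) stood at 11.7, 15.2, 6 and 45.7 CPM in PDGFRα- and at 14.3, 6.6, 21 and 24.6 CPM in PDGFRα+ libraries 1 to 4. Both were highest in PDGFRα- library 4, the library with the highest endothelial markers. Its leukocyte and enteric neuron marker sums were also the highest, at 54.9 and 11.5 CPM, against at most 46.8 and 3.9 CPM elsewhere. The part of these cell types in the Lama3 and Lama5 values was not tested. The log2 fold changes of Lama3 and Lama5 were -1.90 ± 1.65 and -0.25 ± 0.60 (SE, edgeR adjusted p = 0.95 and 0.99). Without PDGFRα- library 4 they were 0.54 ± 1.21 and 0.60 ± 0.45 (edgeR adjusted p = 0.998 and 0.969), so both signs reversed. The sign of Lama5 also reversed without PDGFRα+ library 2, to 0.02 ± 0.61.

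The estimates for Lamb1 and Lamb2 had opposite signs. Lamb1 encodes β1, the widely expressed β chain, and Lamb2 encodes β2, known from synapses, kidney filter, vessels and smooth muscle. Lamb1 (ENSMUSG00000002900, chromosome 12, 31265234 to 31329644) stood at 1180, 1034, 1043 and 1077 CPM in PDGFRα- and at 1592, 1831, 1758 and 1526 CPM in PDGFRα+ libraries 1 to 4. The fractions were well apart, with means of 1084 ± 66.8 and 1677 ± 142 CPM (SD, n = 4). This gave a log2 fold change of 0.63 ± 0.14 (SE, 95% interval 0.32 to 0.94, edgeR adjusted p = 0.113), and 0.63 ± 0.11 with the block (edgeR adjusted p = 0.00486). DESeq2 without the block gave an adjusted p of 1.4e-04, and the blocked edgeR call was lost without number 3 (adjusted p = 0.0966).

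Lamb2 (ENSMUSG00000052911, chromosome 9, 108479736 to 108490530) stood at 152, 156, 131 and 120 CPM in PDGFRα- and at 109, 120, 126 and 107 CPM in PDGFRα+ libraries 1 to 4. In each of the 4 same-numbered pairs the PDGFRα+ value was the lower, but the fractions overlapped. The log2 difference was -0.28 ± 0.15 (SE, 95% interval -0.60 to 0.04, edgeR adjusted p = 0.826), and -0.27 ± 0.13 with the block (edgeR adjusted p = 0.417). The 95% intervals of the Lamb1 and Lamb2 log2 fold changes did not overlap. That is only a description, since the pair was picked with its results known and the difference was not tested. Within a library the ratio of Lamb1 to Lamb2 counts was 7.77, 6.63, 7.97 and 8.99 in PDGFRα- and 14.7, 15.3, 13.9 and 14.3 in PDGFRα+ libraries 1 to 4. This ratio does not depend on library scaling, its fractions did not overlap, and no p is given because the genes were chosen with these results known.

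Promoter stretches of the 2 β genes are shown because the ratio of these genes separated the fractions. They are the first parts of RefSeq windows on GRCm38.p6, plus strand, 5′ to 3′, cut at the base before the GENCODE gene start. The rest of each RefSeq window, beyond that base, was not searched. The table held 4 of the 9 members. Capitals mark matches on either strand to any of 5 motifs, and no matches overlap. The GC box was searched as GGGCGG. The CCAAT box was searched by the letters of its name and the TATA box as TATAAA. For the E-box, where transcription factors of the helix-loop-helix family can bind, the letters were CANNTG. The AP-1 motif, known for Fos and Jun binding, was taken to be TGANTCA.
Lamb1, chr12:31265043-31265233: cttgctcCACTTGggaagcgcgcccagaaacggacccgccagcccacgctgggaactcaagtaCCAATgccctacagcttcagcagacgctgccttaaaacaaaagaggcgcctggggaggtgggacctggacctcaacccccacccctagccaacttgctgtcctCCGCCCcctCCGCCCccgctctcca
Lamb2, chr9:108479612-108479735: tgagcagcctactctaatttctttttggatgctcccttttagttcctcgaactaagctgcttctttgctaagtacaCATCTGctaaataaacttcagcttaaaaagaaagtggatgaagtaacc

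The Lamb1 stretch was 63.9% GC and held 2 GC boxes, 1 CCAAT box and 1 E-box. Of all 32851 promoter windows, 23.1%, 26.9% and 57.5% held these motifs in their first 191 bases. The Lamb2 stretch was 37.9% GC and held 1 E-box, which 42.9% of all promoter windows held in their first 124 bases. The other windows were cut at these lengths and not at each gene's own start, so the stretches compared can differ in distance from it. Neither shown stretch held the TATA box or the AP-1 motif, and the uncovered rest of the windows may differ. These motifs are common, and a match or its absence is only a description of these letters.

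Lamc1 encodes γ1, the γ chain of nearly all laminins and the anchor for nidogen. Lamc1 (ENSMUSG00000026478, chromosome 1, 153218922 to 153332786) stood at 1184, 1220, 1222 and 1214 CPM in PDGFRα- and at 1496, 1794, 1692 and 1448 CPM in PDGFRα+ libraries 1 to 4. The PDGFRα- values were nearly equal and all lay below the PDGFRα+ values, with means of 1210 ± 17.7 and 1607 ± 163 CPM (SD, n = 4). The estimate on the log2 scale was 0.41 ± 0.14 (SE, edgeR adjusted p = 0.435), and with the block it was 0.40 ± 0.10 and just missed the threshold (edgeR adjusted p = 0.0531). The authors' deposited table lists 0.39 with an adjusted p of 0.00339.

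Lamc3 encodes γ3, a rare γ chain. Lamc3 (ENSMUSG00000026840, chromosome 2, 31887291 to 31946539) had 16, 65, 6 and 14 counts in PDGFRα- and 90, 161, 72 and 81 counts in PDGFRα+ libraries 1 to 4, or 0.651, 3.27, 0.468 and 0.703 CPM and 2.58, 6.6, 2.32 and 6.02 CPM. In each of the 4 same-numbered pairs the PDGFRα+ value was the higher, and PDGFRα- library 2 overlapped the PDGFRα+ values. Its log2 estimate was 1.77 ± 0.83 (SE, edgeR adjusted p = 0.723), and 2.08 ± 0.84 with the block (edgeR adjusted p = 0.307). Exons of Lama2, Lama3 and Lamc3 overlap antisense genes, and since the strand setting of the counting is not given in the sources used here, reads of the partners cannot be told apart.

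Of the 2 γ members Lamc1 was far the more abundant per length. Lamc1 made up 99.9% ± 0.147 of the summed Lamc1 and Lamc3 level in PDGFRα- and 99.6% ± 0.187 in PDGFRα+ libraries (SD, n = 4), and Lamc3 0.142% ± 0.147 and 0.369% ± 0.187. Without PDGFRα- library 2 the PDGFRα- share of Lamc3 was 0.0684%.

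**Figure D2:**
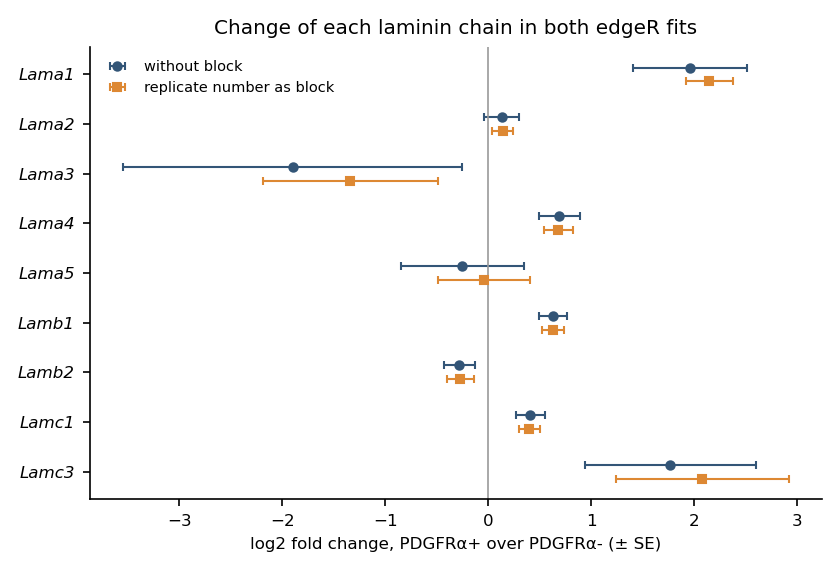
Log2 fold change of each laminin chain, PDGFRα+ over PDGFRα- (x axis, ± SE), in the edgeR fit without the block (circles) and in the fit blocked on the replicate number (squares). Both fits give the same sign for each of the 9 chains, from 2.15 for Lama1 with the block to -1.90 for Lama3 without it, and the SE of Lama1 is 0.55 without and 0.23 with the block.

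To ask which chains each fraction can combine, levels were compared between genes per length, as TPM, counts per kilobase of merged exons scaled to a sum of 1e+06 per library. TPM did not use the library scaling of the CPM values, so differences between the fractions are not the same on both scales. For example, mean Nid1 was 991 and 964 CPM but 224 and 237 TPM in PDGFRα- and PDGFRα+ cells. In PDGFRα- cells the order of mean TPM was Lamc1 (230 ± 27.4), Lama2 (197 ± 45.2), Lamb1 (171 ± 11.3), Lama4 (45.4 ± 8.84), Lamb2 (35.9 ± 3.48), Lama1 (5.87 ± 3.39), Lama5 (2.76 ± 2.65), Lama3 (1.98 ± 3.24) and Lamc3 (0.327 ± 0.344) (SD, n = 4). The ranges of neighbours overlapped except between Lamb1 and Lama4 and between Lamb2 and Lama1. In PDGFRα+ cells it was Lamc1 (332 ± 54.1), Lamb1 (289 ± 42), Lama2 (233 ± 41.8), Lama4 (79.4 ± 17.8), Lamb2 (32.4 ± 4.7), Lama1 (25.6 ± 8.98), Lama5 (2.49 ± 1.25), Lamc3 (1.24 ± 0.677) and Lama3 (0.563 ± 0.662). There Lama2 and Lama4, Lama4 and Lamb2, and Lama1 and Lama5 did not overlap, and the other neighbours did.

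The order of the leading 3 chains depended on the length used. Merged exons ran to 16338 bases against 9614 for the longest transcript of Lama2, 12068 against 6046 for Lama4 and 9917 against 5784 for Lamb1, and to 8272 against 7622 for Lamc1. With the longest transcript as length, Lama2 stood at 304 ± 68.8, Lamb1 at 267 ± 16.8 and Lamc1 at 227 ± 26.1 TPM in PDGFRα- cells, and Lamb1 at 449 ± 63.4, Lama2 at 359 ± 63.3 and Lamc1 at 327 ± 51.8 TPM in PDGFRα+ cells. Levels of Lama2, Lamb1 and Lamc1 were therefore not ranked. Their separation from the rarer chains held with either length.

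Within the α class the mean shares of Lama1 and Lama4 were higher in PDGFRα+ cells, with overlap between the fractions. Lama1 made up 5.27%, 1.83%, 2.38% and 0.694% of the α level in PDGFRα- and 10.7%, 9.3%, 6.11% and 4.29% in PDGFRα+ libraries 1 to 4. The fractions overlapped, since PDGFRα- library 1 exceeded PDGFRα+ library 4, while within every same-numbered pair the PDGFRα+ share was the larger. Lama4 made up 25.4%, 13.5%, 19.7% and 15.3% against 28.4%, 25.2%, 23.6% and 16.4%, and Lama2 68.5%, 83.9%, 77.3% and 79.1% against 60.3%, 65.2%, 69.1% and 78.0%. Lama3 and Lama5 reached 2.48% and 2.43% in PDGFRα- library 4 and at most 0.388% and 1.13% in the other libraries.

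Within the β class the shares of Lamb1 and Lamb2 did not overlap between the fractions, and those of Lamb3 did. Lamb2 made up 17.3%, 19.6%, 16.9% and 15.3% of the β level in PDGFRα- and 9.9%, 9.61%, 10.4% and 10.2% in PDGFRα+ libraries 1 to 4. Lamb3, which encodes β3, made up at most 1.03% in any library. With the longest transcript as length the Lamb2 share was 11.7% ± 1.29 and 6.57% ± 0.235 (SD, n = 4).

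**Figure D3:**
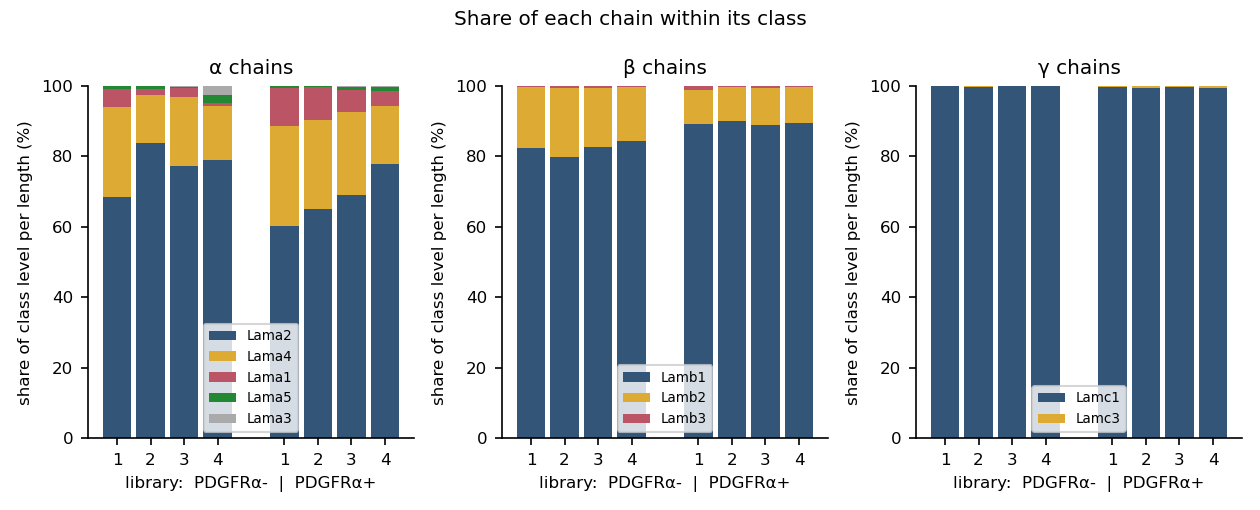
Share of each chain in the summed level per length of its class (y axis, percent) in each library (x axis, PDGFRα- libraries 1 to 4 on the left and PDGFRα+ libraries 1 to 4 on the right of each panel). Lamb2 takes 15.3% to 19.6% of the β level in PDGFRα- and 9.61% to 10.4% in PDGFRα+ libraries, and Lamc1 at least 99.4% of the Lamc1 and Lamc3 level in every library.

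For 13 known or described combinations the scarcest of the 3 chains in a library bounds the RNA that could serve that trimer. The caps share chains and cannot be added, and RNA does not measure protein or assembly. In bulk libraries the 3 chains of a combination may also come from different cells, so the counts below do not show that any cell holds all 3. With a minimum of 1 TPM for every chain in every library, 6 of 13 combinations had all chains in PDGFRα- cells (laminins 111, 121, 211, 221, 411 and 421). In PDGFRα+ cells 8 of 13 did, the same 6 and laminins 511 and 521. That difference is not a contrast between the fractions, because it rested on Lama5 at 0.909 TPM in PDGFRα- library 3.

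Laminin 211 had the highest cap in both fractions. It was 129, 164, 181 and 181 TPM in PDGFRα- and 172, 242, 262 and 257 TPM in PDGFRα+ libraries 1 to 4, and the fractions overlapped. Its scarcest chain was Lama2 in PDGFRα+ cells and Lama2 or Lamb1 in PDGFRα- cells with merged exon lengths, and Lamc1 in PDGFRα- and Lama2 or Lamc1 in PDGFRα+ cells with the longest transcript.

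The cap of laminin 411 was set by Lama4 in all libraries, at 48.0, 35.5, 56.3 and 42.0 TPM in PDGFRα- and 80.7, 93.6, 89.2 and 53.9 TPM in PDGFRα+ libraries 1 to 4. The cap of laminin 111 was set by Lama1, at 9.95, 4.82, 6.82 and 1.91 TPM against 30.4, 34.6, 23.1 and 14.1 TPM, with no overlap. The caps of the β2 laminins 221 and 421 were set mostly by Lamb2 and overlapped between the fractions, at 35.9 ± 3.48 and 32.4 ± 4.7 TPM for laminin 221 (SD, n = 4). Lamb2 was the scarcest chain of laminin 121 in 1 PDGFRα+ library, number 1, where it stood at 26.8 TPM and Lama1 at 30.4 TPM.

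The cap of the α3 laminins 311 and 321 was set by Lama3, and it was under 1 TPM in 3 of 4 PDGFRα- and 3 of 4 PDGFRα+ libraries. The γ3 laminins 213, 423 and 523 had caps of 0.132 to 0.842 TPM in PDGFRα- cells, set by Lamc3. In PDGFRα+ cells the caps of laminins 213 and 423 were 0.637 to 1.94 TPM.

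**Figure D4:**
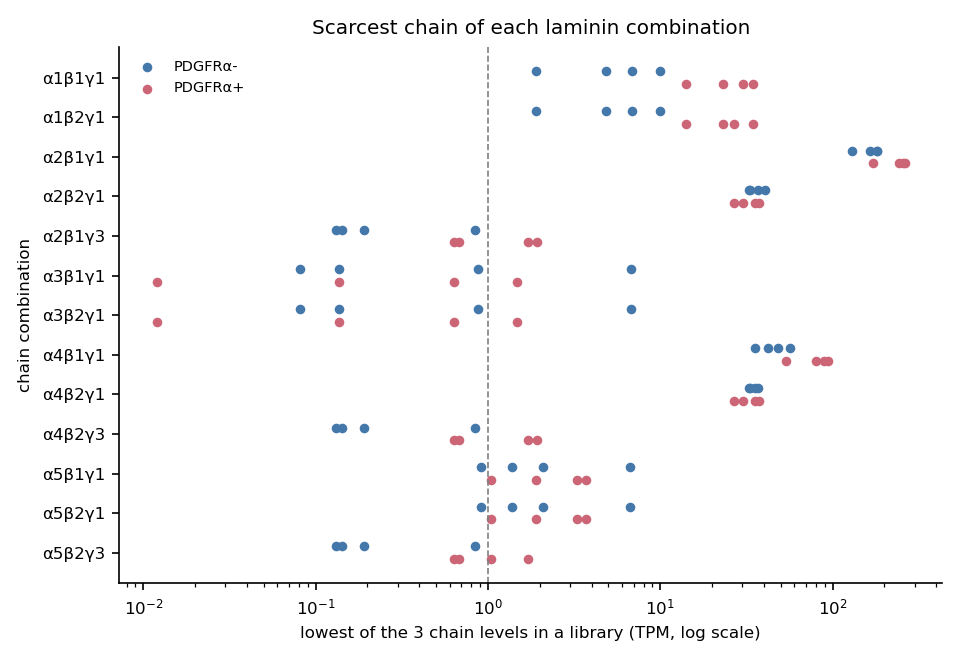
Lowest of the 3 chain levels per length (x axis, TPM, log scale) for 13 chain combinations (y axis), with each point a library and the dashed line at 1 TPM. The α1β1γ1 points of the fractions do not overlap (1.91 to 9.95 against 14.1 to 34.6 TPM), and the β2-limited α2β2γ1 points do.

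The other genes of the laminin network were read from lists. Of 15 basement membrane partners 0 passed without the block (edgeR, against 0.243% of all genes). Before adjustment 7 of the 15 had a p under 0.05, against 6.95% of all genes, and DESeq2 called 2 (1.55% of all genes) and limma-voom 0 (0.192%). With the block 4 were higher, against 1.34% of all genes, and 2 lower, against 0.933%. Its members had a median log2 difference of -0.04 without and -0.03 with the block, beside -0.01 over all genes. The 4 were Nid2, a nidogen that links laminin γ1 to collagen IV (log2 fold change 1.21 ± 0.20 SE with the block, edgeR adjusted p = 0.00613), Col18a1 (1.04 ± 0.12), Col15a1 (0.77 ± 0.11) and the collagen IV chain gene Col4a1 (0.47 ± 0.10). The other nidogen gene, Nid1, stood at 991 ± 113 and 964 ± 49.9 CPM (SD, n = 4, edgeR adjusted p = 0.955 with the block). Col4a2, another collagen IV chain gene, had an estimate in the direction of Col4a1 but missed the threshold (0.38 ± 0.10 SE with the block, edgeR adjusted p = 0.0687). The 2 lower genes were Sparc, a collagen-binding glycoprotein gene with the highest CPM of the list (-0.46 ± 0.10), and Smoc2, a SPARC relative (-0.77 ± 0.12). Exons of Nid2, Nid1, Col15a1, Col4a1 and Col4a2 overlap genes on the other strand.

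Netrins share the short-arm fold of laminins, and netrin 4 binds γ1 and can break up laminin networks. Of 4 tested netrin genes 1 was called lower in both fits, as were 0.0511% of all genes without and 0.933% with the block. Ntn4 stood at 62.4, 80.5, 65.2 and 54.6 CPM in PDGFRα- and at 28.2, 27.1, 26 and 24.9 CPM in PDGFRα+ libraries 1 to 4, with no overlap (log2 fold change -1.31 ± 0.19 SE, edgeR adjusted p = 0.0111). This call was absent without PDGFRα- library 3 or without PDGFRα+ library 3, where no genes at all were called lower. Ntn1, the netrin gene with the highest CPM, stood at 396 ± 55.5 and 433 ± 43.5 CPM (edgeR adjusted p = 0.97).

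None of 11 laminin receptor genes passed in either fit (edgeR; DESeq2 and limma-voom called 0). Before adjustment 3 of the 11 had a p under 0.05 in each fit, against 6.95% of all genes without and 11.7% with the block. Itgb1, the integrin β1 gene and the highest of the list in CPM, stood at 614 ± 37.4 and 766 ± 56.1 CPM (SD, n = 4, edgeR adjusted p = 0.674). Dag1, which encodes dystroglycan, the α2 receptor, stood at 316 ± 54.8 and 312 ± 40.2 CPM (edgeR adjusted p = 0.997). None of 11 tested genes for the glycosylation of dystroglycan passed either (edgeR; DESeq2 and limma-voom called 0). Before adjustment 0 of the 11 had a p under 0.05 without the block, and 2 with it, which is 18.2% against 11.7% of all genes.

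Among 6249 genes with a mean of at least 20 CPM, those whose log2 CPM over the 8 libraries most closely followed Lama1, Lama4 or Lamb1 were listed as a description. These 3 chains were called in the blocked edgeR fit and not in the main one. For Lama1 they were Fblim1, Tmem176a and Hsd11b1 (Pearson r from 0.97 to 0.99), for Lama4 Bmp4, Man2a2 and Sdc3 (r of 0.96 each), and for Lamb1 1700025G04Rik, Myh9 and Vcan (r from 0.97 to 0.98). The libraries share fraction, number and depth, and the difference between fractions contributes to each value.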

How the data were processed

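Per the labels' protocols, 8 libraries were made with a low-input stranded RNA-seq kit. The submitters' processing notes name build GRCm38 and the tools cutadapt 3.4, STAR 2.7.3a, featureCounts 2.0.1 and DESeq2. Tool parameters, strand setting and annotation were not given in the sources used here. As the main values, the authors deposited whole-number raw read counts per gene. The same table holds the authors' size-factor-scaled counts and dispersions (scores), and their comparison as a ratio (fold change), log2 fold change, p-value and adjusted p-value, quoted only where named. Amplified reads are not independent molecules.

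Counts were tested with edgeR 4.0.16 in R 4.3.3 (robust quasi-likelihood, TMM, filterByExpr, group as the only term, 15643 genes), Benjamini-Hochberg adjusted over all genes, and all 9 members were tested. The edgeR fits without and with the block were run on simulated counts, which held no effect of the replicate number. DESeq2 1.42.0, limma 3.58.1 (voom), other scaling, no filter, a replicate block and left-out libraries were alternatives. CPM used TMM-scaled library sizes. TPM used merged exon lengths of GENCODE M21, which held 53706 of 53801 identifiers. Rows without a length held at most 0.0193% of counts. Named list genes were those past the threshold in either fit, up to 6 per list, and the member with the highest CPM. Nid1, Col4a2 and Dag1 were named in addition.

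Between same-numbered libraries the deviations from the group mean had an r from 0.02 to 0.25. The best partner of 7 of 8 libraries carried the same number. Pairing was not established, as not every pair reached the minimum r of 0.1. In an edgeR test of the number with fraction as a term, 669 of 15643 genes passed an adjusted p of 0.05. That test does not say what same-numbered libraries share. The authors' deposited dispersions differed by at most 0.00087% from a DESeq2 model with number and group and by up to 7498% from one with group alone. The γ share is taken over Lamc1 and Lamc3, and some planned items are not reported here. Members and lists were chosen with earlier results of these data known.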

Additional observations from a re-analysis of the deposited data

Results flagged for a closer look

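A single library lay far from the other 3 of its group in 5 of 36 groups of values (the CPM and the class share of 9 chains in both fractions). Chance flags about 1 in 20 such groups, but the 5 are not independent: they come from 2 libraries, with a CPM value and the shares that follow from it. Lama3 stood at 44.0 CPM in PDGFRα- library 4, which was 2.48% of the α level per length there. Lamc3 stood at 3.27 CPM in PDGFRα- library 2, which was 0.362% of the summed Lamc1 and Lamc3 level per length, with Lamc1 at the other 99.6%. PDGFRα- library 4 also held the highest level of all 11 endothelial markers and the highest leukocyte and enteric neuron marker sums. The part of these cell types in the Lama3 value was not tested.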

How the results depend on the processing

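The estimated direction held under every alternative run for Lama1 (log2 fold change 1.66 to 2.48), Lama2 (0.03 to 0.21), Lama4 (0.51 to 0.84), Lamb1 (0.57 to 0.69), Lamb2 (-0.35 to -0.20), Lamc1 (0.35 to 0.46) and Lamc3 (1.51 to 2.83). Leaving out single libraries gave -3.03 to 0.54 for Lama3 and -0.54 to 0.60 for Lama5. The sign reversed for Lama3 without PDGFRα- replicate 4 (0.54), and for Lama5 without PDGFRα- replicate 4 (0.60), without PDGFRα+ replicate 2 (0.02), and with the replicate block without replicate 2 (0.37) or replicate 4 (0.29). The number of chains called higher was 0, and it was 3 with the replicate block, 2 with DESeq2, 2 without a filter on low counts, and 1 to 3 with the block when a number was left out, the lowest without number 3, where Lama1 alone passed. It was 0 whenever a single library was left out without the block. Over all genes the counts were 30 higher and 8 lower. They were 209 and 146 with the replicate block, 154 and 116 with DESeq2, and 167 and 110 without a filter. Without a single library they were 7 to 39 and 0 to 11. With the block they were 124, 178, 77 and 185 higher and 72, 103, 22 and 115 lower without number 1, 2, 3 and 4. The DESeq2 counts were not limited to the 15643 genes of the edgeR fit, of which DESeq2 called 243 in either direction. Partner genes called higher were 4 and lower 2 with the block, and 0 to 1 higher when a single library was left out. Netrins called lower were 0 to 1 when a single library was left out. The Lamb1 share was 88.0% and 93.0% with the longest transcript as length and 88.3% and 93.2% from counts without length, against 82.3% and 89.4% in PDGFRα- and PDGFRα+ libraries. The number of combinations with every chain present was 4 to 8 in PDGFRα- and 6 to 11 in PDGFRα+ cells with minimums of 5 and 0.5 TPM. Low counts limit what can be said of Lama3 and Lamc3.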
